A study of Mus musculus with 21 samples.

Results

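The mouse growth cluster of miR-322, miR-503, miR-351, miR-542 and miR-450 is a group of microRNA (miR) hairpins that lie side by side on the X chromosome and are known as products of one primary transcript. The 10 members described here are mature arms of these hairpins, taken by name from the 1647 mature miRNAs of the count table. They were chosen by their place in the cluster with measured values in view, since the low cochlear levels of miR-542-3p and miR-503-5p at the last time point were already known, and miR-503-5p in the brainstem had entered a comparison of organs. Cochlear values, and those of miR-503-5p in the brainstem, are therefore a description without a test, and tests are given for the other members in the brainstem libraries.

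Small RNA was profiled in 2 organs of the mouse auditory system, the cochlea and the superior olivary complex (SOC), a group of brainstem nuclei that receives input from both ears, in 21 libraries from untreated wild-type animals of both sexes. The time points were embryonic day 16 (E16), the day of birth (P0) and postnatal day 16 (P16), after the onset of hearing. The cochlear groups (2, 4 and 4 libraries in order of age) came from the inner ear sensory epithelium of C57BL/6JOlaHsd mice, and the SOC groups (4, 4 and 3) from C57Bl6/J mice, with tissue of several animals pooled per SOC sample and more animals pooled at E16 than at P16. Strain, RNA isolation (Direct-zol for the cochlea, innuPREP for the SOC) and library kit (SMARTer for the cochlea, TruSeq for the SOC) all differ between the organs, so that differences in level between them cannot be told apart from these choices. For the SOC, heads were frozen at E16, whereas at P0 and P16 the brain was taken out of the skull before freezing. Age and this handling coincide between E16 and the later time points, and the part of handling was not tested. The sex make-up of the pools is not given, and for an X-linked cluster its part was not tested.

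MicroRNAs pair with messenger RNAs through their seed, a short stretch near the 5′ end, and lower the output of the paired transcripts. The 5p arms of miR-322 (miR-424 in humans) and miR-503 belong to the extended miR-16 group, which is known to restrain cyclins and other drivers of the cell cycle, and both are known to rise when muscle precursors stop dividing. miR-351 carries the seed of miR-125, a family known from neural differentiation, and miR-542-3p is known to target survivin, a protein of dividing cells. In the sensory epithelium of the cochlea, progenitors leave the cell cycle before birth, whereas neurons of the SOC are born earlier.

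The 7 hairpin genes of the cluster span 6353 bp on the minus strand of chromosome X (53047997 to 53054349, GRCm38), in the order Mir322, Mir503, Mir351, Mir542, Mir450-2, Mir450-1 and Mir450b in the direction of transcription. Mir322 (53054255 to 53054349) and Mir503 (53053984 to 53054054) are 200 bp apart, and Mir351 (53053255 to 53053353) follows 630 bp downstream. A gap of 3767 bp, which holds the lincRNA Gm28730, separates Mir351 from Mir542 (53049403 to 53049487), and the 3 miR-450 hairpins end the cluster at Mir450b (53047997 to 53048078). None of the 7 hairpin genes overlaps another annotated gene in GENCODE, and the nearest gene upstream, C430049B03Rik, a processed transcript, lies 696 bp away.

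The mature sequences of the 10 members are shown because the arms, seeds and base composition of the members recur in the results below. Capitals mark the seed (bases 2 to 8), and members are grouped by the seed they share with each other or with relatives outside the cluster. All 10 members matched a RefSeq entry of GRCm38.p6, as did 1415 of the 1647 miRNAs of the table. The first group carries AGCAGCA or, in miR-503-5p, AGCAGCG, and miR-16-5p and miR-497a-5p are printed beside it as relatives from other loci.
mmu-miR-322-5p: cAGCAGCAauucauguuuugga
mmu-miR-503-5p: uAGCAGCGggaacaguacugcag
mmu-miR-16-5p: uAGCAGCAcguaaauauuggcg
mmu-miR-497a-5p: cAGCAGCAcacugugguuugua
The second group carries CCCUGAG, with miR-125a-5p and miR-125b-5p from other loci.
mmu-miR-351-5p: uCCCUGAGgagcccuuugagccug
mmu-miR-125a-5p: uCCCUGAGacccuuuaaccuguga
mmu-miR-125b-5p: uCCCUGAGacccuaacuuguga
The remaining members share no seed with another of the 10, although miR-450b-3p shares UUGGGAA with miR-450a-1-3p, a further product of the cluster, and miR-450a-5p is encoded by both Mir450-1 and Mir450-2.
mmu-miR-322-3p: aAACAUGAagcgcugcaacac
mmu-miR-503-3p: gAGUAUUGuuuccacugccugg
mmu-miR-542-3p: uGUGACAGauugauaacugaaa
mmu-miR-542-5p: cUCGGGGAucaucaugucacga
mmu-miR-450a-5p: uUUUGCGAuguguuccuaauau
mmu-miR-450b-5p: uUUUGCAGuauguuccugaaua
mmu-miR-450b-3p: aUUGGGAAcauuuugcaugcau

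Of all cochlear counts, the 10 members together took 2.05% ± 0.146 (SD, n = 2) at E16, then 0.682% ± 0.157 (n = 4) at P0 and last 0.166% ± 0.0241 (n = 4) at P16. The SOC values were 1.17% ± 0.505 (n = 4), 0.271% ± 0.151 (n = 4) and 0.140% ± 0.103 (n = 3). These shares are scaled by the library total alone, so they also depend on what else was counted. In the cochlea, miR-125a-5p took 13.7% and 15.5% of the counts at E16 and 28.7% to 35.0% at P0. Totals ranged from 124400 to 447419 counts in the cochlea and from 8309669 to 18053698 in the SOC, so one count stood on average for 6.74 CPM (counts scaled to a common total) in the cochlea at P16 and for 0.0986 CPM in the SOC at P16. Levels below are CPM normalized by the trimmed mean of M values (TMM) within each organ, and limits and intervals on counts cover counting error only, since PCR copies of one molecule are counted separately. To be tested in an organ, a miRNA had to exceed 1 CPM in 2 or more libraries of the same group. Cochlear miRNAs named as tested below are those that passed this criterion, as no test was run there. By this criterion 9 members passed in the SOC, without miR-450b-3p, and 9 in the cochlea, without miR-450b-5p.

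**Figure D1:**
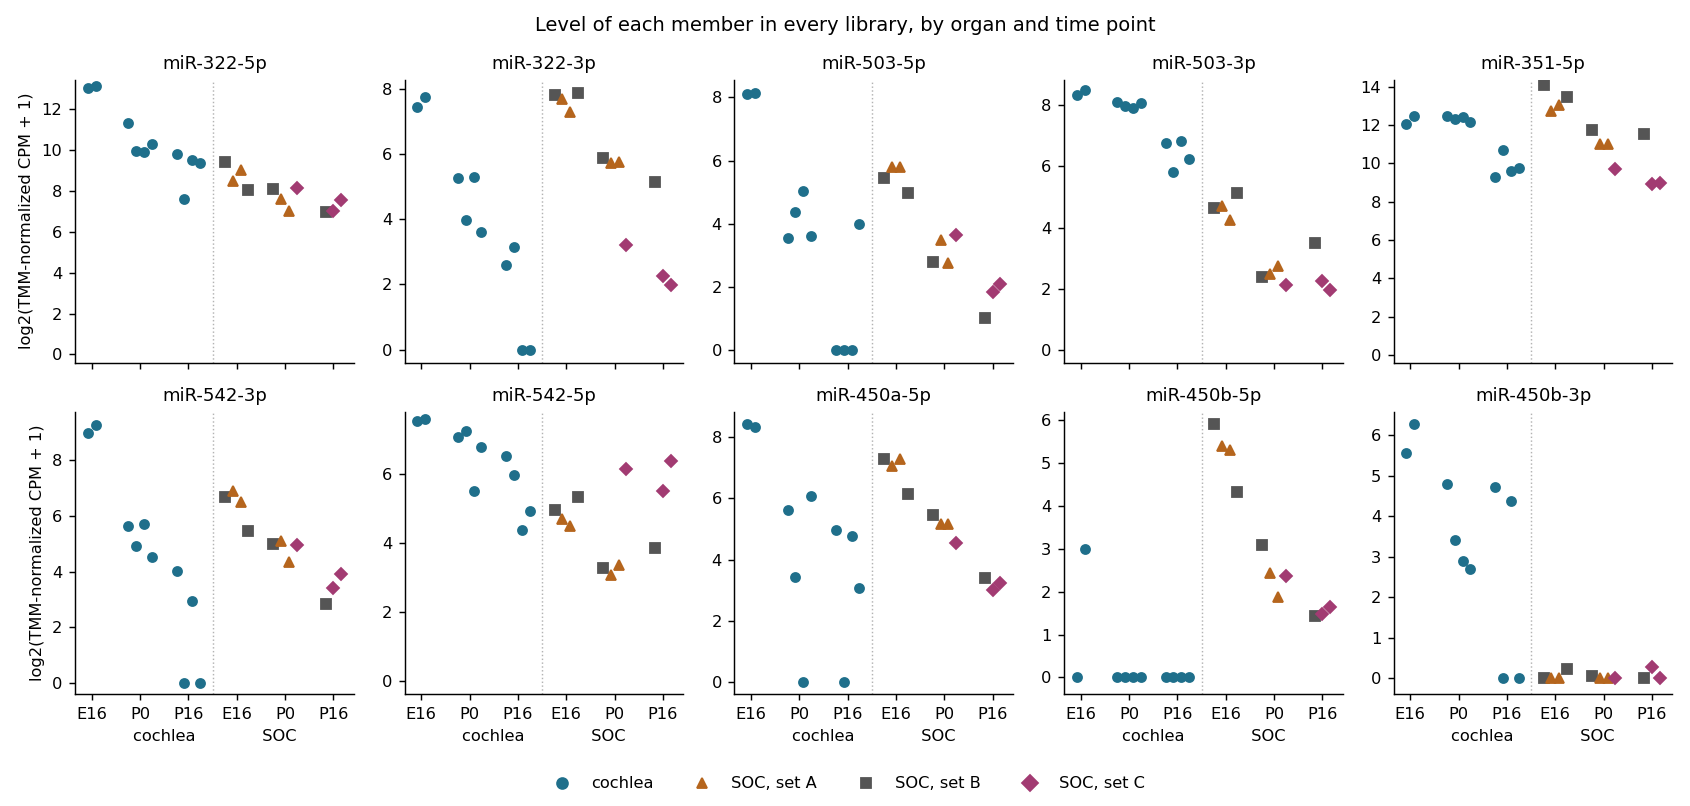
Level of each of the 10 members in each of the 21 libraries, as log2 of TMM-normalized CPM plus 1, by organ and time point, with the SOC library sets described in the text as separate symbols. Points are single libraries. miR-450b-5p is at 0 in the cochlea except for 1 E16 library (4 counts), miR-450b-3p is at 0 to 2 counts in the SOC, and miR-542-5p is high in the 3 libraries of SOC set C.

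Before the SOC tests, a division of the SOC libraries has to be described that neither the labels nor the paper names and that was defined from the counts. Replicates 2 and 3 of E16 and of P0 have over 10% of their counts on miR-99b-5p (set A), P0 replicate 4 together with P16 replicates 2 and 3 have under 1% on miR-191-5p (set C), and the other 4 libraries form set B. With time point and set in one edgeR fit, 5 of the 9 tested members differed between sets C and B at a false discovery rate (FDR) under 0.05, near the share among all 694 tested miRNAs (54.9%), or 4 of 8 without miR-503-5p, so the difference between sets is not a result about the members. miR-322-3p (log2 difference -3.12), miR-351-5p (-2.35) and miR-503-3p (-1.16) were lower in set C, whereas miR-542-5p (2.51) and miR-503-5p (1.19) were higher. For miR-322-5p (0.32), miR-542-3p (0.58), miR-450a-5p (-0.51) and miR-450b-5p (-0.15) the FDR was above 0.05. Set C holds no E16 library and set A no P16 library, so SOC changes are also given from the fit that includes the set. The sets were defined from these same counts, so the FDRs and calls of that fit, here and below, can be too favourable. They are a description.

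The first question asked of the SOC was which members changed between E16 and birth. A member was called when edgeR's quasi-likelihood test gave an FDR under 0.05 over the 694 miRNAs tested in the SOC, the fold change exceeded 1.5 and no replicate of one time point overlapped the other. At P0 vs E16, 6 of the 9 tested members were called lower, against 29 of all 694 tested miRNAs (4.18%). Without miR-503-5p, whose values were known, the number is 5 of 8. No member was called higher by edgeR, 0 were higher at an unadjusted p under 0.05 and DESeq2 called 0 higher. The share of all 694 miRNAs called higher is not given, so nothing is read from these 0 counts, here or in the comparisons below. As a description, the median log2 change was -2.26 over the 9 members, with miR-503-5p included, and 0.17 over all 694 miRNAs. The FDR measures the change against the spread between samples. In bulk tissue, fewer cells of a type and less RNA per cell cannot be told apart.

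The level of miR-503-5p, which targets cell-cycle genes, was 42.7, 53.9, 54.1 and 30.1 CPM in the 4 E16 libraries, 5.88, 10.2, 5.72 and 11.4 at P0, and 1.03, 2.54 and 3.25 at P16. The 3 time points did not overlap, and each E16 library lay above each later one. Its log2 change at P0, a description here, was -2.45. Its hairpin partner miR-503-3p had 17.8 to 33.9 CPM at E16, 3.37 to 5.64 at P0 and 2.87 to 10.2 at P16, with a change of -2.48 at P0 (FDR 0.00831).

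The most abundant member in the SOC, miR-351-5p, had 17655, 6857, 8537 and 11163 CPM at E16, 3423, 2091, 2059 and 837 at P0, and 2924, 488 and 494 at P16. All P0 libraries lay below all E16 libraries, with the lowest P0 value in the library of set C, and at P16 the library of set B stood above both libraries of set C. The fall at P0 was -2.39 (standard error 0.660, FDR 0.0478), close to the threshold, and -1.90 (FDR 1.74e-05) with the set as a covariate. The call was lost without any single one of E16 replicates 1 to 4, P0 replicates 2 to 4 or P16 replicate 2, with an FDR of 0.0502 to 0.143.

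At the 3′ end of the cluster, miR-450a-5p had 157, 132, 156 and 69.1 CPM at E16, 43.3, 34.8, 35.1 and 22.2 at P0, and 9.59, 7.10 and 8.52 at P16. miR-450b-5p had 59.1, 41.3, 38.4 and 19.2 CPM at E16, 7.46, 4.44, 2.66 and 4.19 at P0, and 1.69, 1.80 and 2.11 at P16. For both, the levels of the 3 time points were separate, and the 3 P16 libraries lay close together although they come from sets B and C. At P0 the change was -1.93 (FDR 0.009997) for miR-450a-5p and -3.07 (FDR 0.00311) for miR-450b-5p, or -1.82 and -3.07 once the set was part of the model.

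miR-542-3p, known to restrain cell division, had 102, 118, 90.0 and 43.3 CPM at E16, 30.7, 33.1, 19.4 and 30.1 at P0, and 6.21, 9.65 and 14.1 at P16. The groups were separate, and between E16 and P0 the closest libraries were replicate 4 of E16 and replicate 2 of P0. The change at P0 was -1.64 (standard error 0.410, FDR 0.0351). It was not called with the replicate number as a block (FDR 0.0557), which leaves 5 members called. Without any single one of E16 replicates 1 to 3, P0 replicates 2 to 4 or P16 replicate 2 its FDR was 0.0566 to 0.116.

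The other arms at the head of the cluster gave no call at P0. miR-322-5p had 684, 358, 524 and 263 CPM at E16, 275, 194, 130 and 279 at P0, and 123, 130 and 188 at P16, so that E16 and P0 overlapped (log2 change -1.06, FDR 0.136). miR-322-3p had 223, 206, 154 and 235 CPM at E16, 57.9, 51.6, 53.1 and 8.14 at P0, and 34.0, 3.82 and 2.97 at P16. For miR-322-3p the E16 libraries were all above the P0 libraries, and the low P0 library and both low P16 libraries are those of set C. Its change at P0 was -2.26 (FDR 0.102), or -1.81 (FDR 2.17e-05) in the fit with the set, where it was called, as it was without P16 replicate 1 (FDR 0.0179). For miR-542-5p the change at P0 was -0.29 (FDR 0.879), or -1.60 (FDR 0.000583) in the fit with the set, without a call since E16 and P0 overlap. The calls at P0 depend on which sets are used: without the 4 libraries of set A 0 members and 0 of all 694 miRNAs were called lower. The log2 changes of the called members stayed negative over the 12 settings run, which include that one. They were -2.75 to -2.08 for miR-503-5p, -2.91 to -2.19 for miR-503-3p and -3.12 to -2.39 for miR-450b-5p. For miR-351-5p they were -2.76 to -1.90, for miR-450a-5p -1.96 to -1.39 and for miR-542-3p -1.75 to -1.24. Set B alone has 1 library at P0, so no calls are given for it.

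At P16 vs E16, 8 of the 9 tested members were called lower in the SOC, against 139 of the 694 tested miRNAs (20%), or 7 of 8 without miR-503-5p, and again 0 members were higher by edgeR, at an unadjusted p under 0.05 or by DESeq2. This comparison shares its E16 libraries with the one above. As a description, the median log2 change was -3.15 over the 9 members, with miR-503-5p included, and 0.08 over all tested miRNAs. miR-450b-5p (-4.40, FDR 0.000164), miR-503-5p (-4.31, a description), miR-450a-5p (-3.93, FDR 0.000126) and miR-322-3p (-3.91, FDR 0.00612) had the lowest values, followed by miR-542-3p (-3.15, FDR 0.000503), miR-351-5p (-3.09, FDR 0.00703), miR-503-3p (-2.15, FDR 0.00508) and miR-322-5p (-1.64, FDR 0.0125). With the set as a covariate 8 were called too (140 of all 694 miRNAs), and the value of miR-503-5p was -4.92, that of miR-322-3p -2.85 and that of miR-351-5p -2.44. The call of miR-322-5p was lost without P16 replicate 2 (FDR 0.0614), and 4 members were called once set A was left out (50 of all 694 miRNAs). Set B alone has 1 library at P16, so no calls are given for it.

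miR-542-5p was the tested member without a call. Its level was 30.1, 25.1, 21.8 and 39.9 CPM at E16, 8.77, 7.40, 9.40 and 70.5 at P0, and 13.5, 44.9 and 82.3 at P16. The 3 high values at P0 and P16 are the 3 libraries of set C, and the other 4 libraries of P0 and P16 lie below every E16 library. The log2 change at P16 vs E16 was 0.68 (standard error 0.802, FDR 0.502), and it turned to -1.50 (FDR 0.00197, without a call since the time points overlap) with the set as a covariate. Within set B the level was 30.1 and 39.9 CPM at E16, 8.77 at P0 and 13.5 at P16.

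At P16 vs P0, 3 of the 9 tested members were called lower in the SOC, against 56 of the 694 tested miRNAs (8.07%), or 2 of 8 without miR-503-5p, and 0 were higher by edgeR, at an unadjusted p under 0.05 or by DESeq2. The 3 were miR-450a-5p (-2.01, FDR 0.00805), miR-503-5p (-1.86, a description) and miR-542-3p (-1.51, FDR 0.0390). miR-450b-5p had -1.33 (FDR 0.0735) and was called with the set as a covariate (FDR 0.0348) and with the replicate number as a block (FDR 0.0482), a pairing that the P16 libraries did not show. miR-351-5p (-0.69, FDR 0.504), miR-322-3p (-1.65, FDR 0.179), miR-322-5p (-0.58, FDR 0.360), miR-503-3p (0.33, FDR 0.646) and miR-542-5p (0.97, FDR 0.410) gave no call after birth. Of the calls after birth, that of miR-450a-5p held whichever library was left out (FDR 0.00223 to 0.0454). Those of miR-503-5p and miR-542-3p depend on single libraries. miR-503-5p left the count without P0 replicate 2 (-1.74) or P16 replicate 2 (-1.85), and miR-542-3p kept its call only without E16 replicate 4, P0 replicate 3 or P0 replicate 4, with an FDR of 0.0536 to 0.144 when any other library was left out. Without P0 replicate 4, of set C, miR-542-5p was called higher (2.499, FDR 0.00728), while miR-322-3p (FDR 0.0391) and miR-450b-5p (FDR 0.0457) were called lower. Without P16 replicate 1, of set B, miR-322-3p (-3.65, FDR 0.00798) and miR-351-5p (-2.10, FDR 0.0237) were called lower. The number of members called lower was 1 without P0 replicate 2 (38 of all 694 miRNAs), 1 without P16 replicate 2 (28 of all) and 5 without P0 replicate 4 (120 of all), and 0 when all 21 libraries were fitted together (29 of 1045). It was also 0 once set A was left out. The number of all miRNAs called in that setting is not given, so nothing is read from this 0. The log2 change of miR-450a-5p was -2.21 to -1.71 over the 12 settings run.

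**Figure D2:**
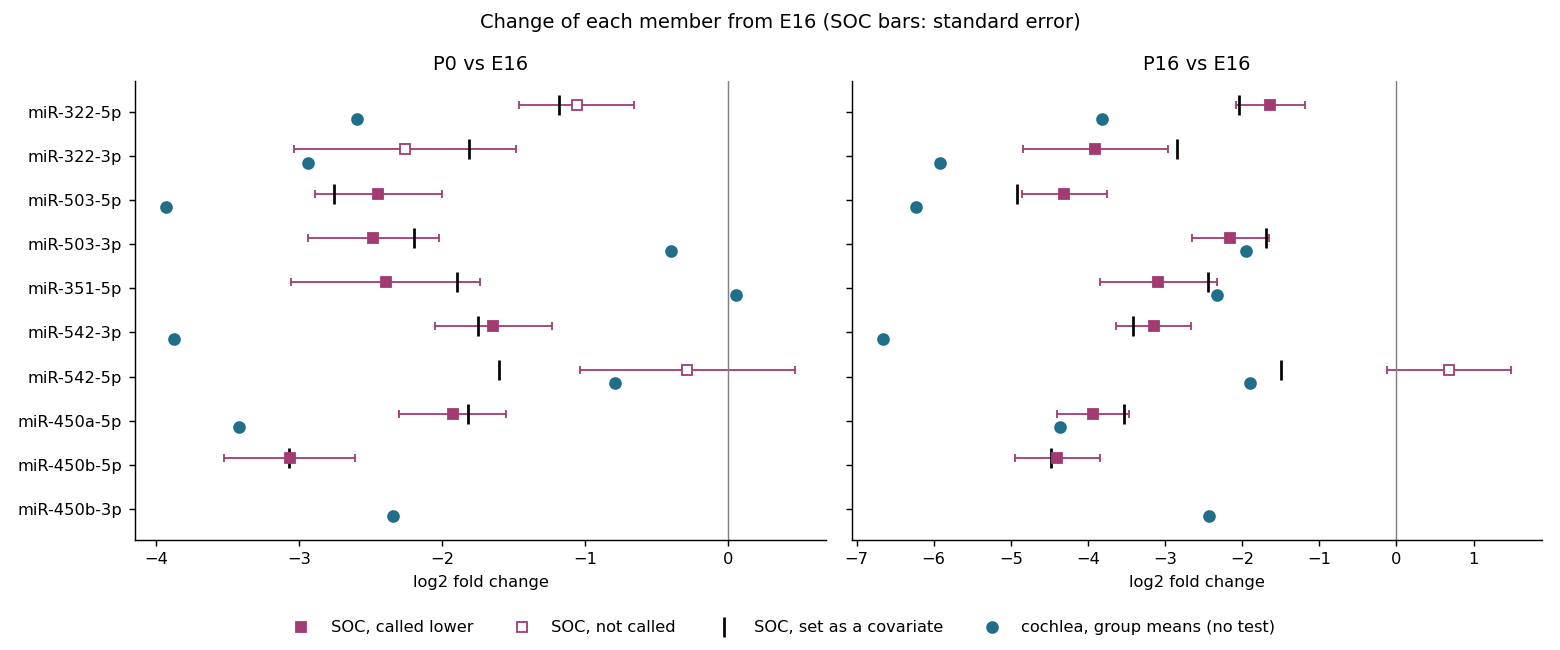
Log2 fold change of each member from E16 to P0 and from E16 to P16. Squares are SOC values from edgeR with their standard error (filled where called lower), bars are SOC values with the set as a covariate, miR-503-5p is shown as a description, and circles are ratios of group means in the cochlea, which were not tested. miR-351-5p is at 0.06 in the cochlea and at -2.39 in the SOC at P0, and miR-542-5p at P16 is at 0.68 in the SOC without the covariate and at -1.50 with it.

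Several lists of marker miRNAs moved with the members in the SOC. Of the cartilage miRNAs, 4 of 4 were called lower at P0 and at P16 vs E16, and their summed level was 1277, 1198, 1305 and 674 CPM at E16, 154, 172, 137 and 253 at P0, and 103, 136 and 183 at P16, with miR-140-5p as the most abundant at E16. Of the epithelial miRNAs, 3 of the 4 tested (miR-200c-3p, miR-203-3p and miR-205-5p) were called lower at both times, as was miR-429-3p in the fit with the set, and the sum of the 7 was 1963, 1739, 1088 and 926 CPM at E16, 110, 195, 108 and 56.2 at P0, and 55.0, 49.7 and 146 at P16. For both lists, each E16 library lay above each later one. miR-205-5p was the most abundant epithelial miRNA at E16, while miR-141-3p, miR-200a-3p and miR-200b-3p had 0 to 14 counts per SOC library.

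Of the muscle miRNAs, 2 of the 4 tested (miR-206-3p and miR-208b-3p) were called lower at both times, joined at P0 by miR-499-5p in the fit with the set, and the summed level was 346, 210, 140 and 248 CPM at E16, 27.2, 15.5, 18.3 and 11.05 at P0, and 33.4, 10.8 and 13.5 at P16. miR-206-3p was the most abundant at E16, and miR-133a-3p had no count at E16 and 0 to 2 counts later. Of the miRNAs of the cochlear sensory epithelium, 1 of 3 (miR-182-5p) was called lower at P0 and 3 of 3 at P16, and the sum was 103834, 164652, 161612 and 85032 CPM at E16, 12780, 28710, 24308 and 4392 at P0, and 3501, 521 and 1457 at P16, with miR-182-5p the most abundant. The paper describes miR-96 and miR-182 as miRNAs of the SOC that fall as it matures. This list is therefore not read as a marker of cochlear tissue in the SOC libraries. Of the mesenchymal miRNAs 2 of the 4 tested (miR-199a-5p and miR-214-3p) were called lower at both times, but the summed level stayed at 15780 to 24924 CPM at E16, 13755 to 19226 at P0 and 18662 to 25372 at P16 because miR-143-3p, the most abundant, was not called. miR-199b-5p had 0 to 5 counts.

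Of the neuronal miRNAs, 0 of 3 were called lower by edgeR and miR-124-3p was called higher at P16 vs E16 (2.58, FDR 0.0129, and 0.97 in the fit with the set, where it was called higher at P0 too), with a summed level of 36906 to 116623 CPM at E16, 48933 to 107750 at P0 and 24752 to 42882 at P16, and miR-9-5p as the most abundant at E16. Of 3 blood miRNAs, miR-223-3p was called lower and miR-451a higher at P16 vs E16 (1.52, or 0.71 with no call in the fit with the set), and the sum was 55.7 to 70.8 CPM at E16, 30.9 to 139 at P0 and 94.9 to 192 at P16, with miR-451a the most abundant. As a description over the 11 SOC libraries, which share time points and sets, Pearson's r between the log2 summed level and the mean standardized level of the members was 0.96 for cartilage, 0.95 for epithelium, 0.92 for muscle, 0.90 for sensory epithelium, 0.43 for neurons, 0.07 for mesenchyme and -0.43 for blood. At E16 the SOC was cut from frozen heads, and later from brains already removed from the skull. The part of this handling and of these cell types in the lower levels of the members was not tested.

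**Figure D3:**
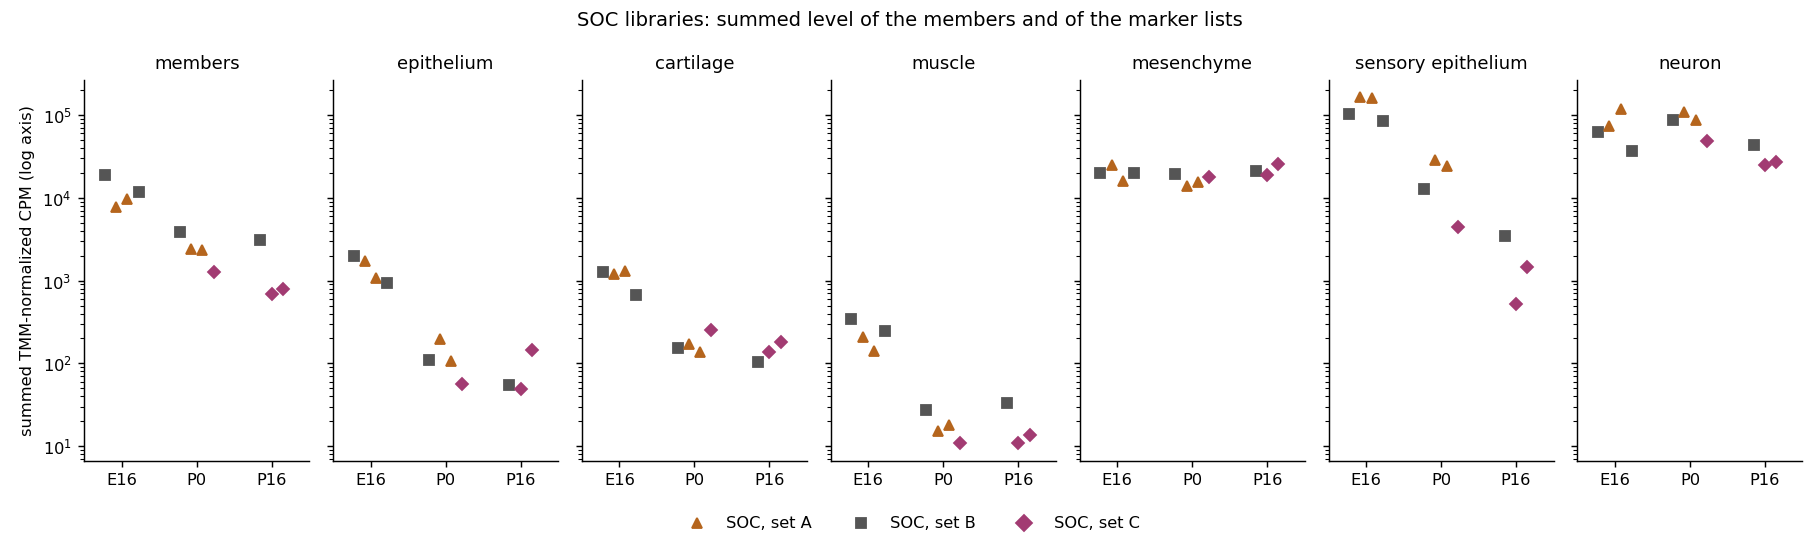
Summed TMM-normalized CPM, on a log axis, of the 10 members and of 6 marker lists in the 11 SOC libraries, with 1 point per library and the library set as symbol. The members, epithelial, cartilage, muscle and sensory epithelium lists are highest in the 4 E16 libraries, whereas the mesenchymal list is between 13755 and 25372 CPM in all libraries.

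In the cochlea, the same members were followed as a description. miR-322-5p, the most abundant member there at E16, had 8441 and 8958 CPM at E16 (3100 and 5158 counts), 2578, 979, 970 and 1241 at P0, and 888, 195, 737 and 654 at P16. miR-351-5p had 4319 and 5670 CPM at E16, 5669, 5084, 5490 and 4514 at P0, and 627, 1689, 790 and 877 at P16. miR-322-5p was thus lower at P0 in each library, by 6.03 times in the group means, whereas miR-351-5p overlapped between E16 and P0 and was lower at P16 only, by 5.02 times. For miR-351-5p the log2 ratio of P0 to E16 was 0.06, and -0.40 with library totals alone, a scaling that moved the median of all tested cochlear miRNAs by -0.35 here and by -0.46 at P16 vs E16. Whether the change of miR-351-5p at birth differs between the organs was not tested.

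miR-503-5p had 275 and 283 CPM at E16 (101 and 163 counts), 2 to 5 counts per library at P0 and 0, 0, 0 and 2 counts at P16. miR-542-3p had 493 and 615 CPM at E16 (181 and 354 counts), 4 to 9 counts at P0 and 3, 0, 1 and 0 at P16. Both were near the floor after birth, where a count of 0 allows up to 3 counts, on average 20.2 CPM at P16. From the pooled counts miR-503-5p was 15.7 times lower at P0 (exact 95% interval 9.02 to 29.9) and 85.3 times lower at P16 (23.4 to 708). In the same way miR-542-3p was 15.3 times lower at P0 (10.4 to 23.5) and 86.5 times lower at P16 (33.6 to 319). These intervals leave out the spread between libraries. They are no test, since the low levels of both members at P16 were known when the members were chosen. miR-322-3p had 64 and 124 counts at E16, 2 to 7 at P0 and 0 or 1 at P16, and miR-450a-5p had 125 and 187 counts at E16, 0 to 12 at P0 and 0 to 6 at P16. The partner arms were less far apart: miR-503-3p had 319 and 358 CPM at E16, 238 to 273 at P0 and 54.5 to 113 at P16, and miR-542-5p had 188 and 193 CPM, 44.9 to 151 and 19.9 to 91.8.

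The replicates of 8 of the 9 members that passed the filter were lower without overlap at P0 than at E16, the exception being miR-351-5p, as were those of 31.2% of the 896 cochlear miRNAs. At P16 vs E16 the number was 9 of 9 (31.7% of all), and at P16 vs P0 it was 5 of 9 (9.71% of all). The first 2 comparisons share the E16 libraries, and nothing is read from these counts, as the cochlear values helped to choose the members. The 2 E16 libraries had TMM factors of 1.33 and 1.29, and P16 replicate 2 had 0.648 with 37.2% of its counts on miR-125a-5p, against 23.2% to 24.7% in the other P16 libraries. The epithelial list was lower after E16 in the cochlea too, with a summed level of 14737 and 22575 CPM at E16, 5657 to 7803 at P0 and 2498 to 7050 at P16, and miR-429-3p the most abundant at E16. Of its 7 miRNAs, 5 were lower and 1 higher at P0 than at E16 without overlap, and 3 were lower and 0 higher at P16 than at E16. The neuronal list was lower as well (3 of 3 without overlap at P0 and at P16), with 3295 and 2782 CPM at E16, 616 to 1225 at P0 and 995 to 1387 at P16, and miR-124-3p or miR-128-3p the most abundant at E16. The blood list was lower for 2 of the 2 tested at both times, with 1378 and 1553 CPM at E16, 193 to 253 at P0 and 364 to 729 at P16, nearly all miR-223-3p, while miR-451a and miR-144-3p were at 0 after E16. The summed cartilage level was 6372 and 6662 CPM at E16, 16656 to 20613 at P0 and 25392 to 47834 at P16, which is the course of miR-455-3p, the most abundant. The other 3 cartilage miRNAs were lower without overlap at P0 than at E16, among them miR-140-5p with 1198 and 1200 CPM at E16, 146 to 230 at P0 and 412 to 1055 at P16. The mesenchymal sum was 47607 and 50911 CPM at E16, 52768 to 77670 at P0 and 14577 to 27422 at P16, with miR-214-3p the most abundant. The muscle sum was 474 and 549 CPM, 218 to 477 and 1097 to 4295, with miR-1a-3p the most abundant and miR-133a-3p and miR-208b-3p at 0 counts. The sensory epithelium miRNAs that mark the labelled tissue had counts in every cochlear library, with 52324 and 55846 CPM at E16, 33733 to 37995 at P0 and 16684 to 38390 at P16. Of these miRNAs, 3 of 3 were lower without overlap than at E16, both at P0 and at P16. As a description over the 10 cochlear libraries, which share time points, Pearson's r with the mean standardized level of the members was 0.90 for the epithelial list, 0.80 for sensory epithelium, 0.66 for neurons, 0.64 for mesenchyme, 0.40 for blood, -0.58 for muscle and -0.95 for cartilage. The part of cell type in the cochlear levels was not tested.

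The make-up of the cluster does not depend on normalization between libraries. In the SOC, miR-351-5p made up 90.9% ± 3.00 (SD, n = 4) of all member counts at E16, 82.4% ± 10.9 (n = 4) at P0 and, at P16, 75.3% ± 16.4 (n = 3). The lower SOC means rest on set C, with 66.1% at P0 and 70.5% and 61.9% at P16, whereas the set B libraries had 93.0% and 93.8% at E16, then 88.8% and last 93.6%. In the cochlea, miR-322-5p was the largest part at E16 with 55.7% ± 2.97 (n = 2), and miR-351-5p followed with 31.8% ± 3.09. At P0 the order was the reverse, with 19.5% ± 6.93 for miR-322-5p and 73.5% ± 6.97 for miR-351-5p (n = 4), and no replicate overlapped between E16 and P0 for either member. At P16 the values were 35.4% ± 17.7 and 54.5% ± 21.04 (n = 4), and the ranges of both members overlapped. The difference between these means rests on replicate 2 of P16 (9.69% and 84.1%), without which they were 44.0% and 44.7%. The other 8 members together were the smaller part in each group.

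A ratio of both arms of a hairpin likewise needs no normalization between libraries. In the SOC, the 3p arm of miR-542 made up 77.2%, 82.5%, 80.5% and 52.1% of the counts of both arms at E16, 77.8%, 81.7%, 67.4% and 29.9% at P0, and 31.6%, 17.7% and 14.6% at P16. All P16 libraries were below all E16 libraries, and the low P0 library is that of set C. The difference between P16 and E16 was -51.8 percentage points (two-sided exact permutation test, p = 0.0286, the smallest that 4 against 3 libraries allow, adjusted p = 0.171 over 12 tests). Within set B the 2 E16 libraries had 52.1% and 77.2%, the P0 library 77.8% and the P16 library 31.6%. In the cochlea the 3p arm of miR-542 held 72.4% and 76.1% at E16, and 27 of its counts stood against 83 of the 5p arm over the P0 libraries, 1 of which had under 20 counts on both arms.

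For miR-322, the 3p arm held 24.6%, 36.5%, 22.7% and 47.2% in the SOC at E16, 17.4%, 21.03%, 29.0% and 2.83% at P0, and 21.7%, 2.85% and 1.56% at P16. The 3 libraries of set C were at 1.56% to 2.85%, and the difference between P16 and E16 of -24.0 points (exact permutation p = 0.0286, adjusted p = 0.171) was smaller within set B, where P16 had 21.7% and E16 had 24.6% and 47.2%. For miR-503 the 3p share was 24.8% to 53.0% at E16, 22.8% to 49.7% at P0 and 90.8%, 60.0% and 46.9% at P16, with overlap. The 12 tests over which p was adjusted include 3 on miR-503, whose values are a description since those of its 5p arm were known, and none of the other 9 had an adjusted p under 0.05. In the cochlea the 3p share of miR-503 was 53.7% and 55.8% at E16 and 96.2%, 92.7%, 88.1% and 96.0% at P0, without overlap, and the 3p share of miR-322 was at most 3.85% in any library.

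The miR-450b arms split by organ. In the SOC the 5p arm had 221 to 1009 counts per library at E16 and the 3p arm 0 to 2, whereas in the cochlea at E16 the 5p arm had 0 and 4 counts and the 3p arm 17 and 44. After birth the cochlear 3p arm had 1 to 5 counts per library at P0 and 0 to 5 at P16, and the 5p arm had none. Since organ and kit coincide, this cannot be told apart from a difference between the kits.

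**Figure D4:**
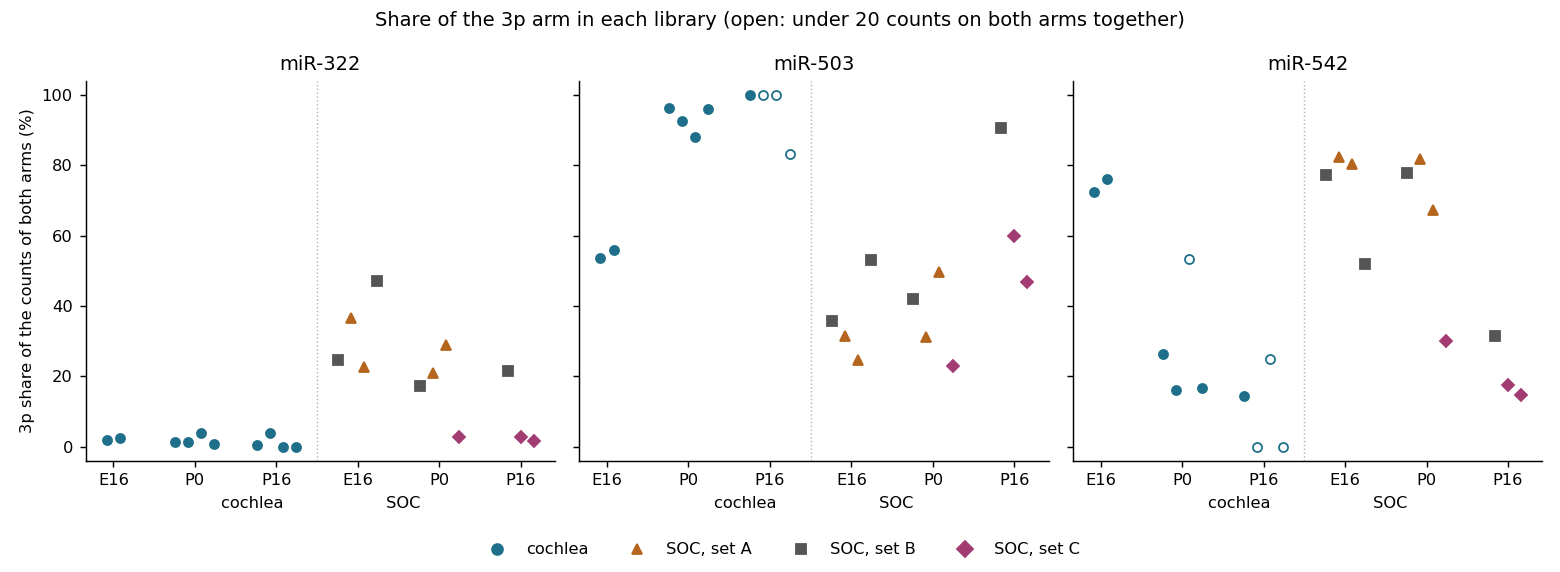
Percentage of the counts of both arms that fell on the 3p arm of miR-322, miR-503 and miR-542 in each library, by organ and time point. Open symbols mark libraries with under 20 counts on both arms together. Among the SOC libraries the 3 of set C are lowest for miR-322, at 1.56% to 2.85%, and the cochlear P0 libraries are at 88.1% to 96.2% for miR-503.

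Relatives with the same seed were set beside the members, as these sequences can pair with the same messenger sites. Among the 8 miRNAs of the table with the seed AGCAGCA, miR-322-5p gave 69.4% to 82.9% of the summed cochlear level at E16, 46.1% to 59.5% at P0 and 15.8% to 36.5% at P16, and these ranges did not overlap. In the SOC it gave 2.05% to 4.05% at E16, 0.396% to 2.49% at P0 and 0.362% to 1.15% at P16, since miR-16-5p had 12973 ± 2820 CPM (SD, n = 4) at E16. The lowest of these values are the libraries of set C (0.396% at P0, 0.416% and 0.362% at P16), and the other libraries had 1.51% to 2.49% at P0 and 1.15% at P16. Of the 4 tested relatives in the SOC, miR-497a-5p was called higher at P16 vs E16 (3.33, FDR 0.00163, and 1.96 in the fit with the set), and miR-15a-5p, miR-15b-5p and miR-16-5p were not called. Among the 3 miRNAs with the seed CCCUGAG, miR-351-5p gave 26.0% to 34.6% of the SOC level at E16, 1.29% to 9.78% at P0 and 2.04% to 9.11% at P16. Without set C the values were 8.54% to 9.78% at P0 and 9.11% at P16. In the cochlea its share was 2.88% to 3.50%, 0.928% to 1.35% and 0.146% to 0.274%, and miR-125a-5p had 111670 ± 12844 CPM (n = 2) at E16 and 334577 ± 56555 (n = 4) at P0. miR-125a-5p and miR-125b-5p were not called in the SOC in any of the 3 comparisons by edgeR.

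Of the other products of the cluster, miR-351-3p had 109 to 163 counts in the SOC at E16, 1 to 54 at P0 and 1 to 47 at P16 (-2.82 at P16 vs E16, FDR 0.0677, not called, and -1.10 in the fit with the set, which called it at P0 vs E16 with -2.08, FDR 0.00261), and 24 and 33 counts in the cochlea at E16, 12 to 17 at P0 and 1 or 2 at P16. Like miR-351-5p, it overlapped between E16 and P0 in the cochlea. Of the growth-linked miRNAs from the imprinted loci H19 (miR-675-5p and miR-675-3p) and Igf2 (miR-483-5p and miR-483-3p), 1 of 4 (miR-675-3p, -3.10, FDR 0.00176) was called lower in the SOC at P0 vs E16 and 4 of 4 at P16 vs E16, whereas the fit with the set called 4 of 4 in both comparisons. Their summed SOC level was 42.0 to 80.9 CPM at E16, 8.61 to 24.5 at P0 and 4.61 to 8.81 at P16, with miR-483-5p the most abundant and miR-675-5p at 0 counts in all 3 P16 libraries. In the cochlea the sum was 460 and 491 CPM at E16, 633 to 1239 at P0 and 45.9 to 265 at P16.

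Among themselves the members varied together to different degrees. Over the 11 SOC libraries the median Pearson's r of the 36 pairs was 0.78, from -0.45 for miR-322-3p with miR-542-5p to 0.97 for miR-503-5p with miR-542-3p. Over the 10 cochlear libraries the median was 0.72, from 0.28 for miR-351-5p with miR-450b-3p to 0.96 for miR-322-3p with miR-542-3p. These values are a description, as the libraries share time points and depth. The miRNAs outside the cluster most like the mean profile of the members, among those with at least 50 CPM at a time point, were miR-205-5p (r = 0.96), miR-140-5p (0.95) and miR-214-5p (0.94) of 251 in the SOC, and miR-25-3p (0.98), miR-1193-3p (0.97) and miR-93-5p (0.97) of 371 in the cochlea. In the SOC these were at 695, 506 and 552 CPM at E16 and at 1.35, 39.2 and 11.1 CPM at P16.

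Base composition moved with the cochlear changes at birth. Over the 764 tested cochlear miRNAs with a RefSeq sequence (85.3%), Pearson's r between the percentage of G and C and the log2 change at P0 vs E16 was 0.47, and over the 9 members it was 0.60. These are correlations across miRNAs, which are not independent replicates. miR-542-3p and miR-450a-5p, with 31.8% G and C, had log2 ratios (means plus 1 CPM) of -3.84 and -3.38, and miR-351-5p, with 62.5%, had 0.06, but miR-503-5p combined 56.5% with -3.86. At P16 vs E16 the cochlear values were 0.30 over all and 0.33 over the members, and at P16 vs P0 they had the other sign (-0.15 and -0.35). In the SOC the values were 0.07 over 609 miRNAs at P0 vs E16, 0.24 at P16 vs E16 and 0.29 at P16 vs P0, and over the 9 members they were 0.07, 0.31 and 0.43. The part of base composition in the cochlear levels of the members was not tested.

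**Figure D5:**
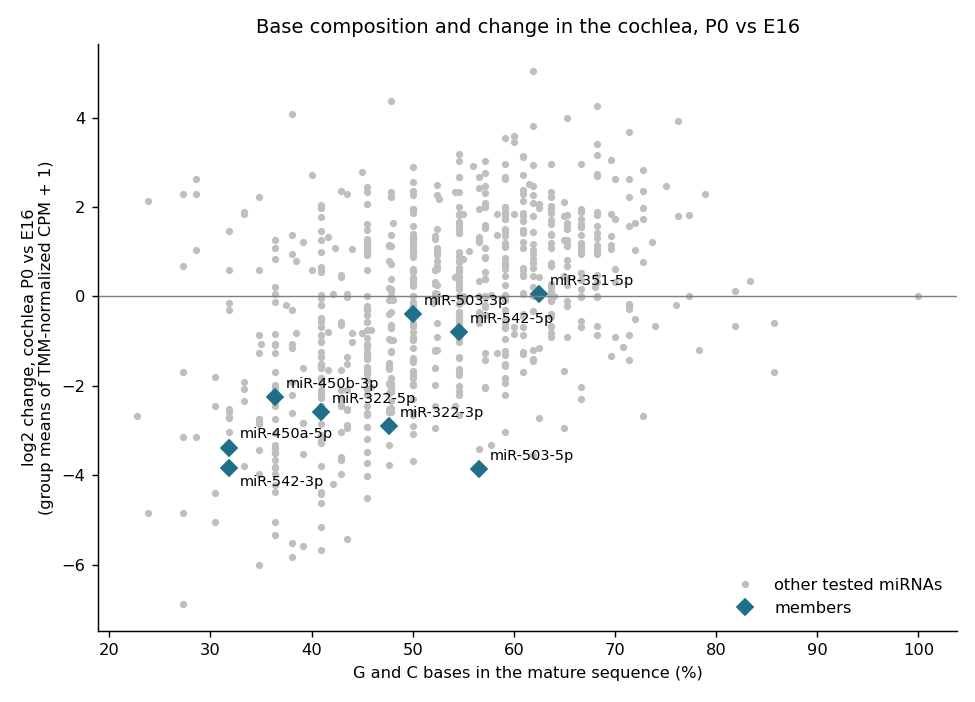
Log2 ratio of the cochlear group means (TMM-normalized CPM plus 1) at P0 and E16 against the percentage of G and C bases in the mature sequence, for the 764 tested miRNAs with a sequence. Grey points are single miRNAs and diamonds are the 9 members that passed the filter. miR-351-5p, with 62.5% G and C, lies near 0, and miR-542-3p, with 31.8%, is among the lowest members.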

How the data were processed

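Raw counts per mature miRNA and library were taken as the authors deposited them, without normalization. Their notes name Bowtie2 2.2.5, DESeq2 and mm10, the paper's methods describe a MirGeneDB reference, and the table has miRBase names, so the counting step is not known. Members, lists and named miRNAs (members, other products, seed relatives, imprinted growth loci, cell type markers and the 3 most similar profiles per organ) were chosen with earlier results of these data known. SOC counts were tested in R 4.3.3 with edgeR 4.0.16 and checked with DESeq2 1.42.0. The edgeR test used TMM, 1 quasi-likelihood fit of the SOC libraries, the F test and Benjamini-Hochberg over all miRNAs tested there. Cochlear counts were scaled by TMM within the cochlea and not tested. Other steps used Python 3.11.15, pandas 2.3.3, numpy 2.4.6, scipy 1.17.1 and matplotlib 3.10.9. Pairing by replicate number was checked from the values alone, as no source states it. SOC libraries of E16 and P0 with the same number deviated together in 4 of 4 pairs (r = 0.251 to 0.490). So did 2 pairs of different number within set A (0.409 and 0.255). Same-numbered libraries of P16 did not do so throughout, either with E16 (r = -0.0903 to 0.0113) or with P0 (0.548, -0.465 and -0.601). The highest values were between different numbers, for P16 replicates 2 and 3 with P0 replicate 4, all of set C (0.767 and 0.789). P16 replicate 1 had 0.533 and 0.602 with P0 replicates 2 and 3. The number was therefore used as a block in an alternative only. Correlations of members were taken on log2 CPM (prior count 2). Where a cochlear group has libraries at or near 0 counts, ratios are pooled ratios with exact 95% intervals. The scripts were tested on simulated data. Alternatives were other scalings and filters, library sets, and leaving out each library.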

Additional observations from a re-analysis of the deposited data

Results flagged for a closer look

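In 46 groups of 4 libraries, 8 values stood apart from the other 3 by Dixon's test at the 5% level, which marks about 1 in 20 groups by chance. In SOC P0 replicate 4, a library of set C, miR-322-3p was at 8.14 CPM (others 51.6 to 57.9) and miR-542-5p at 70.5 CPM (others 7.40 to 9.40), on 70 and 606 counts. In the cochlea at P0, replicate 1 had 2578 CPM of miR-322-5p, against 970 to 1241 in the other 3. The remaining 5 rest on 1 or 2 counts where the other libraries had none. These are miR-503-5p in cochlea P16 replicate 4 (14.9 CPM, 2 counts), miR-450b-3p in SOC E16 replicate 4 (0.174 CPM, 2 counts) and in SOC P0 replicate 1 (0.0452 CPM, 1 count), and the 3p share of miR-450b in the same 2 libraries (0.897% and 0.602%).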

How the results depend on the processing

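The number of members called lower in the SOC was 6 at P0 vs E16, 8 at P16 vs E16 and 3 at P16 vs P0. It was 0, 4 and 0 after set A (rich in miR-99b-5p) was left out, a setting that uses fewer libraries. At P0 vs E16, 0 of all 694 tested miRNAs were then called lower. The number among all at P16 vs P0 is not given, so nothing is read from the 0 members there. Over the 12 settings run, the log2 change of miR-503-5p at P0 vs E16, a description, was -2.75 to -2.08. That of miR-450a-5p at P16 vs P0 was -2.21 to -1.71. Set B alone has 1 library at P0 and 1 at P16, so only effect sizes are given for it. One fit of all 21 libraries gave 0 at P16 vs P0, and the cause was not tested. At P0 vs E16, miR-503-3p and miR-450b-5p were each called in 10 of the 12 settings. miR-450a-5p was called in 9, miR-351-5p in 7 and miR-542-3p in 6. The 12 settings share libraries and include set B alone, so these counts are a description. Leaving out each library gave 4 to 7, 7 to 8 and 1 to 5, with 17 to 34, 82 to 205 and 28 to 124 of all 694 tested miRNAs called lower (members: 1 without P0 replicate 2 or P16 replicate 2, 5 without P0 replicate 4). With the replicate number as a block the numbers were 5, 8 and 4 (30, 144 and 62 of all 694). Members called higher were 0 in the SOC with all libraries by edgeR and by DESeq2, and miR-542-5p was called at P16 vs P0 without P0 replicate 4 (2.499). In the cochlea, members lower without overlap numbered 8 to 9, 9 and 4 to 6 over the settings run. In the main setting the shares of all 896 cochlear miRNAs were 31.2%, 31.7% and 9.71%. Nothing is read from these cochlear counts.

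Direction changed for miR-542-5p and miR-503-3p in comparisons where neither was called with all libraries. For miR-542-5p at P0 vs E16 it was 0.18 after set A was left out, 0.0130 without P0 replicate 2 and -1.72 to 0.0130 over the libraries left out in turn, and at P16 vs E16 it was -1.50 with the set as a covariate and -1.38 in set B alone. For miR-503-3p at P16 vs P0 it was -0.42 without P16 replicate 1 (-0.42 to 0.60 over the libraries left out in turn). The 3p share of miR-322 at P16 vs P0 differed by 4.26 points in set B alone, against -8.89, and that of miR-542 at P16 vs E16 by -33.1, against -51.8. The cause of these changes was not tested. In the cochlea at P0 vs E16, library totals alone gave -0.86 for miR-503-3p, against -0.40, and -0.40 for miR-351-5p, against 0.06. Depth limits cochlear ratios after birth, where several members have 0 to 5 counts per library.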
